A study of Mus musculus with 4 samples.

Results

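The 10 genes described here encode the core of the transforming growth factor beta (TGF-β) pathway. They are the ligands Tgfb1, Tgfb2 and Tgfb3, the latent binding protein gene Ltbp1, the receptors Tgfbr1 and Tgfbr2, the signal carriers Smad2, Smad3 and Smad4, and the inhibitor Smad7. They were chosen by symbol, and all 10 were found among the 55401 genes of each count table. RNA-seq counts were available for 4 libraries from C57BL/6 mice, 1 each from the kidney and the heart of a CLP group and of a CLP + MLT group. CLP (cecal ligation puncture) lets gut bacteria leak into the abdomen and causes sepsis, and all 4 libraries came from mice that had undergone it. According to the methods of the study, the mice were males aged 8 weeks, MLT (melatonin) was given in the drinking water (25 μg/ml) over the 14 days before the operation, and kidneys were collected 24 h after it. The methods do not describe the hearts, the label MLT4 carries a number that is not explained, and the number of mice behind each library is not said. Each group had 1 library, so the spread between mice is unknown for every difference below. None of the 4 libraries came from a sham group.

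TGF-β ligands are secreted in a latent form, held in the matrix by latent binding proteins such as LTBP1, and have to be released before they act. The active ligand binds the type II receptor TGFBR2, which recruits and phosphorylates the type I receptor TGFBR1. TGFBR1 then phosphorylates SMAD2 and SMAD3, which join SMAD4, enter the nucleus and regulate transcription. SMAD7 is induced by the pathway and blocks the type I receptor. In kidney and heart the pathway is best known for driving matrix deposition and fibrosis. The study also measured Tgf-β1 mRNA in kidney by RT-PCR, and the counts address whether transcripts of the pathway differed between the CLP and CLP + MLT libraries.

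Between 15883057 and 22927905 reads were counted on genes per library, and the 10 genes had between 18 and 1355 reads each. Reads on no gene made up 52.1% to 52.6% of the reads placed on a gene or on none. Log2 ratios were taken as CLP + MLT over CLP within each tissue after scaling with TMM, which sets the libraries to a common level by a trimmed mean of the gene ratios. Intervals in parentheses are 95% intervals that cover counting error only, and they are exact unless named as Wald intervals. The thresholds were a change of 1.5-fold or more together with an exact binomial p-value on the reads of 0.01 or less, which compares 2 libraries and not the conditions. The tissue labels were checked with marker genes. The 8 kidney tubule markers summed to 26586 and 37744 CPM (counts per 1000000 TMM-scaled reads) in the CLP and CLP + MLT kidney libraries and to 397 and 828 CPM in the heart libraries. The 8 cardiomyocyte markers summed to 34333 and 24256 CPM in heart and to 10.4 and 15.9 CPM in kidney. Positions are those of GENCODE M21 on mm10. In bulk tissue, fewer cells of a type and less RNA per cell cannot be told apart.

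In kidney, the type II receptor transcript was the member that differed most. Tgfbr2 was lower in the CLP + MLT library and was the only member past the thresholds there, 1 of 10. Among all 16932 genes tested in kidney, 15.4% were past the thresholds with 7.8% higher and 7.58% lower, so the count of members does not exceed the background. The members had a median log2 ratio of −0.04, beside 0.0029 for all genes. Of the 10, 4 were above 0 and 6 below. With scaling by library size only, which moved the median of all genes to −0.19, the members' median was −0.23.

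In heart, 1 of 10 members was past the thresholds, and it was Tgfb2, higher in the CLP + MLT library. The background in heart was 15.9% of 15871 genes tested, with 7.15% higher and 8.78% lower. The members had a median log2 ratio of 0.18, beside 0.0023 for all genes, with 8 above 0 and 2 below. Those 2 were Tgfb1 and Tgfbr2. The directions of all 10 members in heart held under each of the 5 scalings tried. In kidney, those of Tgfb1, Tgfb3 and Smad3, all within 0.21 of 0, did not.

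**Figure D1:**
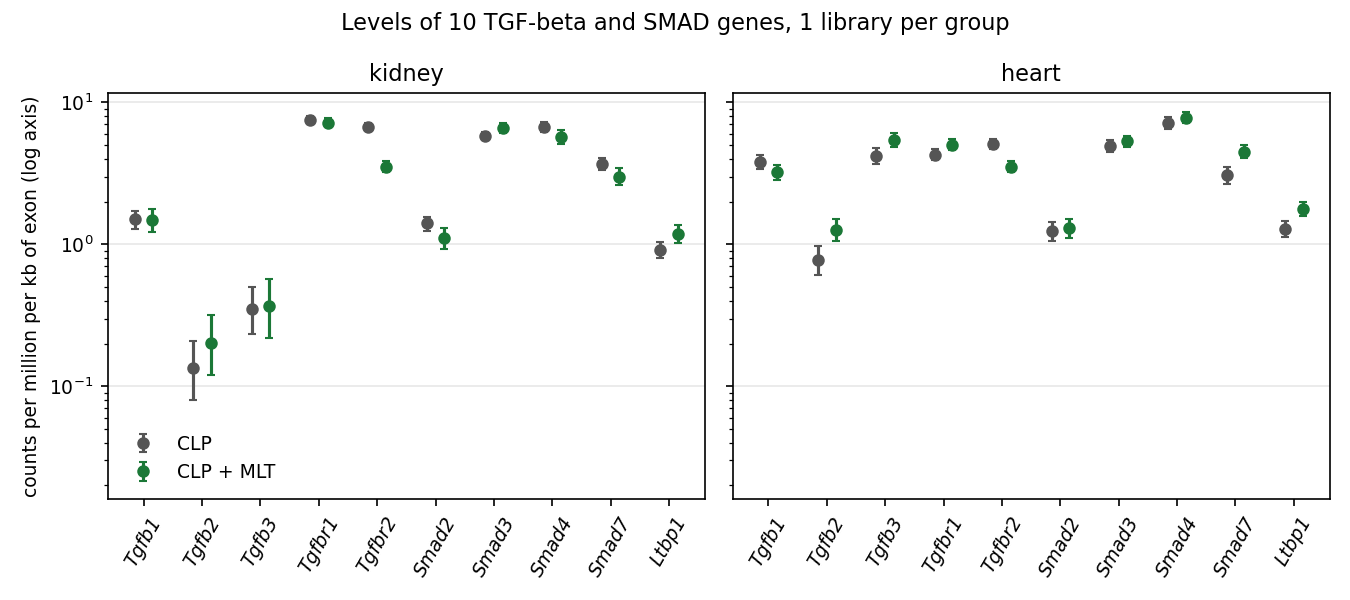
Levels of the 10 genes as TMM-scaled CPM per kilobase of exon (log axis) in the CLP and CLP + MLT libraries of kidney and heart, 1 library per group. Points are the libraries and bars are 95% exact Poisson intervals. In kidney Tgfb2 and Tgfb3 lie below 0.4 and Tgfbr2 is at 6.75 in CLP and 3.53 in CLP + MLT.

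The ligand transcripts had the fewest reads of the members in kidney, and per kilobase Tgfb2 and Tgfb3 were the lowest there. Tgfb1 (ENSMUSG00000002603.15, chromosome 7 from 25687002 to 25705077), the main ligand of inflammation and fibrosis, had 185 reads in the CLP kidney library and 115 in the CLP + MLT kidney library. Scaled, these were 7.54 and 7.47 CPM, and the log2 ratio was −0.01 (−0.36 to 0.33). The interval included 0 and lay inside a 1.5-fold change in either direction, so these 2 kidney libraries did not differ beyond counting error. In heart Tgfb1 had 314 and 263 reads, or 19.3 and 16.2 CPM. The log2 ratio was −0.25 (−0.49 to −0.0049), under the 1.5-fold threshold.

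Tgfb2 (ENSMUSG00000039239.14, chromosome 1 from 186622792 to 186705989), a ligand known for its part in heart development, had 19 and 18 reads in kidney. Its kidney log2 ratio of 0.58 had an interval from −0.42 to 1.603, so neither a fall nor a rise could be seen at this depth. In heart Tgfb2 had 73 reads without melatonin (CLP) and 119 with it (CLP + MLT), or 4.48 and 7.35 CPM. The log2 ratio was 0.71 (0.28 to 1.16), a ratio of 1.64, and 1316 of the genes tested in heart had a higher log2 ratio. The call was lost in edgeR's exact test at each assumed coefficient of variation between mice, 0.1, 0.2 and 0.4, which cannot be estimated from these libraries.

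Tgfb3 (ENSMUSG00000021253.7, chromosome 12 from 86056745 to 86079041), the ligand with the largest contrast between the organs, had 29 and 19 reads in kidney and 232 and 297 in heart. The log2 ratio was 0.06 (−0.85 to 0.95) in kidney and 0.37 (0.11 to 0.62) in heart. Of its exon bases, 12.4% are shared with genes annotated on the other strand, Gm37804 and Gm48008. Gm48008 had 0 reads in the CLP heart library and 15 in the CLP + MLT heart library, and Gm37804 had 13 and 12. The sources used here do not give the strand setting of the counting, so reads of Tgfb3 and of these genes cannot be told apart. In Tgfb2, 2.14% of the exon bases are shared with Gm29491, which had at most 4 reads in any library, and the other 8 members share none.

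The mix of ligands differed between the organs. Compared per kilobase, Tgfb1 made up 75.6% of the 3 ligands in the CLP kidney library and 72.3% in the CLP + MLT kidney library. In heart it made up 43.4% and 32.5%, and Tgfb3 made up 47.8% and 54.7%. As a share of the ligand reads, Tgfb1 fell on 314 of 619 reads in the CLP heart library, 50.7% (46.7% to 54.7%), and on 263 of 679 in the CLP + MLT heart library, 38.7% (35.1% to 42.5%). These intervals do not overlap. In kidney the shares were 79.4% (73.6% to 84.4%) and 75.7% (68.0% to 82.2%), and the intervals overlap. With the 4 libraries scaled together, Tgfb3 was 14.5 times as high in heart as in kidney in the CLP group, Tgfb2 6.93 times and Tgfb1 3.14 times. The next was Ltbp1 at 1.72 times.

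Ltbp1 (ENSMUSG00000001870.16, chromosome 17 from 75005568 to 75392512) encodes the protein that anchors the latent ligand in the matrix. It had 241 and 194 reads in kidney and 224 and 308 in heart, the CLP library first. It was higher in the CLP + MLT library in both organs by less than 1.5-fold, with a log2 ratio of 0.36 (0.08 to 0.64) in kidney and 0.47 (0.22 to 0.72) in heart. Neither was past the thresholds.

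Tgfbr2 (ENSMUSG00000032440.13, chromosome 9 from 116084293 to 116175360) encodes the receptor that binds the ligand. It had 1355 reads in the CLP kidney library, more than any other member in any library, and 445 in the CLP + MLT kidney library, or 55.2 and 28.9 CPM. The log2 ratio was −0.93 (−1.09 to −0.78), so that the level was 1.91 times as high in CLP, and the whole interval lay beyond a 1.5-fold fall. Of the genes tested in kidney, 975 had a lower log2 ratio. The value ranged from −1.13 to −0.91 over the 5 scalings. The gene stayed past the thresholds with an assumed coefficient of variation of 0.1 and not with 0.2 or 0.4. In heart Tgfbr2 had 680 and 467 reads, or 41.7 and 28.8 CPM, a log2 ratio of −0.53 (−0.71 to −0.36), in the same direction and just under the threshold of 1.5-fold.

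Tgfbr1 (ENSMUSG00000007613.15, chromosome 4 from 47353222 to 47414931), the kinase that TGFBR2 activates, differed less. It had 1204 and 723 reads in kidney, or 49.1 and 47.0 CPM, and a log2 ratio of −0.06 (−0.20 to 0.07). In heart it had 457 and 532 reads, or 28.0 and 32.9 CPM, and a log2 ratio of 0.23 (0.05 to 0.41). Both intervals lay inside a 1.5-fold change.

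The ratio of the receptors within a library does not depend on the scaling. Per kilobase, Tgfbr2 stood at 0.898 of Tgfbr1 in the CLP kidney library and at 0.491 in the CLP + MLT kidney library, a log2 change of −0.87 (−1.07 to −0.67). In heart the ratio was 1.19 in CLP and 0.701 in CLP + MLT, a log2 change of −0.76 (−1.01 to −0.51). In both organs the type II receptor transcript was therefore lower against the type I receptor transcript in the CLP + MLT library. The pairs of genes compared in this way were chosen after their values were seen, and their intervals are Wald intervals of the 4 counts.

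**Figure D2:**
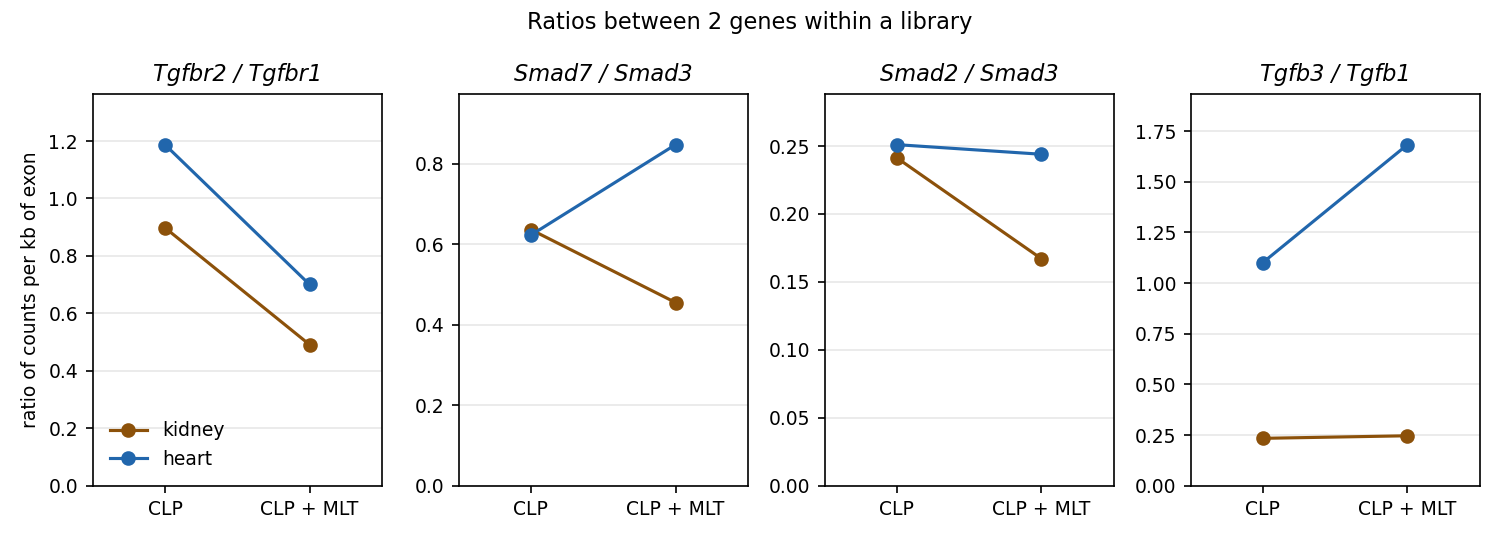
Ratios of counts per kilobase of exon between pairs of the 10 genes within the same library (vertical axes from 0), for CLP and CLP + MLT in kidney and heart, with 1 library per point. The ratio of Tgfbr2 to Tgfbr1 is lower in CLP + MLT in both organs, while the ratio of Smad7 to Smad3 goes from 0.636 to 0.455 in kidney and from 0.623 to 0.847 in heart.

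Tgfbr2 is expressed by endothelial cells among others. Of the 7 endothelium markers, 6 had in kidney a log2 ratio below 0, with a median of −0.32 and a range from −0.56 to 0.11, and 0 were past the thresholds. Their summed level was 283 CPM in CLP and 234 CPM in CLP + MLT, and none was at 0. With scaling by library size only, 3 of the 7 were lower past the thresholds, and so were 2373 of all 16932 genes. In heart 6 of the 7 were above 0, with a median of 0.14, and 1 was past the thresholds, higher. Of the 5 podocyte markers, 2 were lower past the thresholds in kidney, with a median of −0.29, sums of 427 CPM in CLP and 316 CPM in CLP + MLT and none at 0. Of the 5 smooth muscle markers, 1 was lower in kidney, with a median of −0.28, sums of 112 and 96.2 CPM and none at 0, and 1 was lower in heart, where the sums were 1256 and 643 CPM. The median of the fibroblast and stroma markers was 0.04 in kidney, where 1 of the 6 tested was lower and the sum was 137 CPM in CLP and 132 CPM in CLP + MLT. In heart it was −0.33, with 2 of 8 lower and sums of 336 and 254 CPM, and none was at 0 in either organ. Among all genes, 15.4% were past the thresholds in kidney and 15.9% in heart. Col1a1 and Col1a2 of the stroma list, and Acta2 and Tagln of the smooth muscle list, are also counted as target genes below. Col1a1 was the stroma marker that was lower in kidney and was among those lower in heart. The part of these cell types in the Tgfbr2 values was not tested.

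The 250 bases before the start of Tgfbr2 and of Tgfb2 are shown because these were the members past the thresholds. They were read from RefSeq promoter windows on GRCm38.p6, both on the minus strand, at chr9:116175364-116175613 and chr1:186705990-186706239. Capitals mark CAGAC, a sequence core to which SMAD3 and SMAD4 are known to bind, searched as CAGAC and as GTCTG on the other strand.
Tgfbr2: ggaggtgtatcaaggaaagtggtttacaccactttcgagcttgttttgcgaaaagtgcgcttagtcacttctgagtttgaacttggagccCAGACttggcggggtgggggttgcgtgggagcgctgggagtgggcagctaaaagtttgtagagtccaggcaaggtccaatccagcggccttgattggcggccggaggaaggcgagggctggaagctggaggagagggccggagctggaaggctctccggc
Tgfb2: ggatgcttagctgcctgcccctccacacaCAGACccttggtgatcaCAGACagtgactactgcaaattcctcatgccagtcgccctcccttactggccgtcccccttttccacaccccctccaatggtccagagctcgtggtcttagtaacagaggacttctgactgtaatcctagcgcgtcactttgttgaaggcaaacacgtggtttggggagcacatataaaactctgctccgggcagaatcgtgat
The Tgfbr2 window held the motif at 160 bases before the start, and the Tgfb2 window held it at 221 and 204 bases. Windows were found for 6 of the 10 members, 8 windows in all, and 5 of the 8 held the motif. Of all 32851 windows of this length, 42.2% held it, so its presence is common and says nothing about binding in these tissues.

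The signal carriers were not past the thresholds, though the Smad2 interval in kidney reached beyond a 1.5-fold fall. Smad3 (ENSMUSG00000032402.12, chromosome 9 from 63646767 to 63757994), which drives many profibrotic target genes, had 790 and 563 reads in kidney and 445 and 476 in heart. Its log2 ratio was 0.18 (0.02 to 0.34) in kidney and 0.11 (−0.08 to 0.30) in heart. Smad2 (ENSMUSG00000024563.16, chromosome 18) had 302 and 149 reads in kidney and 177 and 184 in heart, with a log2 ratio of −0.35 (−0.64 to −0.06) and 0.07 (−0.24 to 0.37). Smad4 (ENSMUSG00000024515.13, chromosome 18), the shared partner, had 614 and 327 reads in kidney and 433 and 470 in heart, with a log2 ratio of −0.24 (−0.43 to −0.04) and 0.13 (−0.06 to 0.32). None of these 6 values reached 1.5-fold. Within the kidney libraries, Smad2 went from 0.241 to 0.167 of Smad3 per kilobase, a log2 change of −0.53 (−0.85 to −0.21). Within the heart libraries it stood at 0.251 and 0.244.

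Smad7 (ENSMUSG00000025880.11, chromosome 18), the inhibitor that the pathway itself induces, went opposite ways in the organs. It had 410 reads in the CLP kidney library and 209 in the CLP + MLT kidney library, or 16.7 and 13.6 CPM, a log2 ratio of −0.30 (−0.55 to −0.06). In heart it had 226 and 329 reads, or 13.9 and 20.3 CPM, a log2 ratio of 0.55 (0.30 to 0.80). Neither was past the thresholds with TMM. In heart the ratio of 1.47 was just under 1.5-fold, and Smad7 passed with scaling by library size only, at 0.61, and with the upper quartile, at 0.60. Heart minus kidney, the difference of its log2 ratios was 0.85 (0.51 to 1.19), a Wald interval from counting error only. Against Smad3 in the same library, Smad7 changed by −0.48 (−0.77 to −0.20) in kidney and by 0.44 (0.14 to 0.75) in heart on the log2 scale. Against Smad4 it changed by −0.06 (−0.37 to 0.25) in kidney, an interval that included 0, and by 0.42 (0.11 to 0.73) in heart.

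For the other members, the difference of the log2 ratios between the organs was smaller. It was 0.41 (0.0018 to 0.82) for Smad2, 0.40 (0.17 to 0.63) for Tgfbr2, 0.36 (0.09 to 0.63) for Smad4 and 0.29 (0.07 to 0.52) for Tgfbr1. The intervals of the other 5 members included 0, and all these are Wald intervals. With 1 library per group these differences were not tested against the spread between mice.

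**Figure D3:**
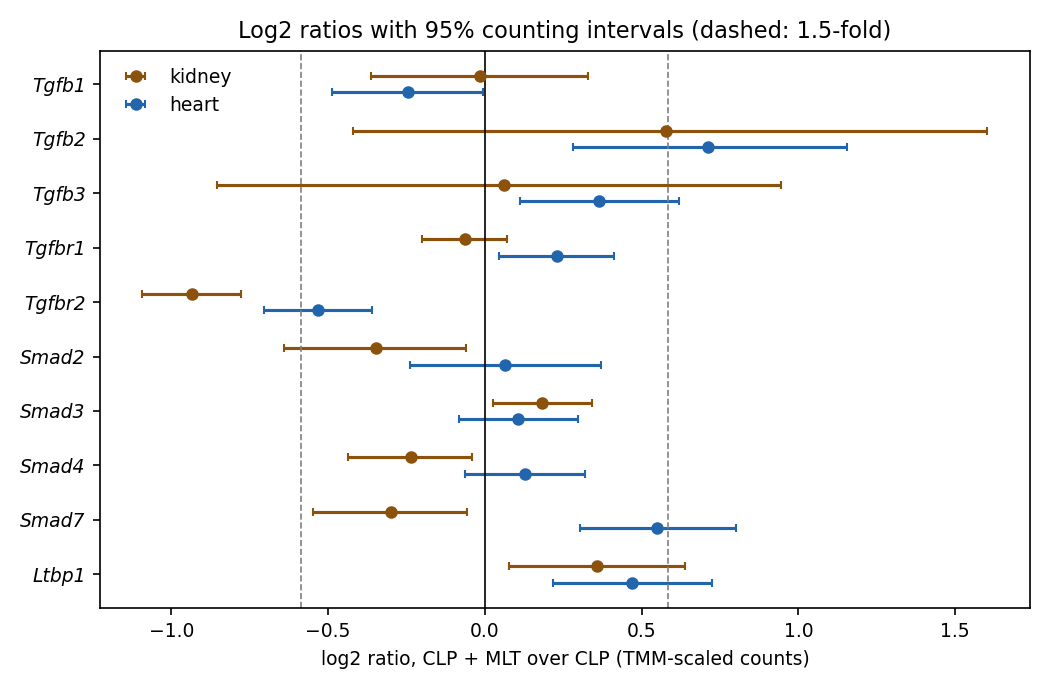
Log2 ratio of CLP + MLT over CLP for the 10 genes in kidney and heart (horizontal axis), with 95% exact counting intervals as bars and a 1.5-fold change as dashed lines, from 1 library per group. The Tgfbr2 interval in kidney lies wholly beyond the dashed line, and Smad7 is the only gene whose kidney and heart intervals lie on opposite sides of 0.

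The heart libraries also differed in cell markers. Of the 8 kidney tubule markers, 5 were higher past the thresholds in the CLP + MLT heart library and 0 lower, with a median log2 ratio of 1.23 and none at 0. Of the 8 cardiomyocyte markers, 2 were lower, with a median of −0.29. In the kidney libraries, macrophage and monocyte markers summed to 116 CPM in CLP and 233 CPM in CLP + MLT. Of the 6 tested, 2 were higher, Lyz2 at 1.81 and Csf1r at 1.13, and 0 lower. The median was 0.50, with a range from −0.49 to 1.81, and none of the 7 listed was at 0. With library size only, 2 were higher and 1 lower. In heart these markers summed to 224 and 279 CPM, with 2 higher and 1 lower and a median of −0.03. Platelets and macrophages are known sources of TGF-β1. Platelet markers summed to 14.2 and 17.2 CPM in kidney and to 20.9 and 23.96 CPM in heart. Of the 5 listed, 2 were tested in kidney and 4 in heart, 1 was higher in each, and Gp1bb was at 0 in all 4 libraries. Among all genes, 15.4% were past the thresholds in kidney and 15.9% in heart. The part of these cell types in the values of the 10 genes was not tested.

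The members were also ordered by level per kilobase within each library. In the CLP kidney library Tgfbr1 was highest at 7.51 CPM per kilobase, followed by Tgfbr2 at 6.75, Smad4 at 6.74 and Smad3 at 5.81, and neighbours among these 4 overlapped within their 95% Poisson intervals. Smad7 at 3.70, Tgfb1 at 1.50, Smad2 at 1.402, Ltbp1 at 0.919, Tgfb3 at 0.349 and Tgfb2 at 0.134 followed, and of these neighbours only Tgfb1 and Smad2 overlapped. In the CLP + MLT kidney library Tgfbr2 was the fourth at 3.53. In heart Smad4 was highest, at 7.15 in CLP and 7.82 in CLP + MLT, and Tgfb2 was lowest, at 0.773 and 1.27. Tgfbr2 was second in the CLP heart library at 5.09 and stood at rank 6 in the CLP + MLT heart library at 3.52.

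By Euclidean distance over the centred log2 levels of the 4 libraries, the genes most like Tgfb1 were Rab12 at 0.043, Mid2 at 0.064 and Synpo at 0.079, out of 9386 genes whose mean count was 100 or more in each organ. The median distance of those genes was 1.58. With 4 libraries this likeness rests mainly on the difference between heart and kidney.

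Other genes of the pathway were taken from 6 lists with 125 genes in all. In kidney 108 of them were tested, and 17 were past the thresholds, 5 higher and 12 lower, or 15.7% beside a background of 15.4%. In heart 106 were tested, and 21 were past the thresholds, 8 higher and 13 lower, or 19.8% beside 15.9%. The median log2 ratio was −0.09 in kidney and −0.01 in heart. The split in kidney depended on the scaling, since with library size only 25 listed genes were past the thresholds, 1 higher and 24 lower. All genes moved the same way, with 727 of 16932 higher and 2373 lower under that scaling.

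Of the target genes, 31 were tested in kidney, 2 were higher and 6 lower, or 25.8% beside 15.4% of all genes, with a median of −0.09. With library size only, 0 were higher and 10 lower. Cdkn1a, which encodes the cell cycle inhibitor p21 and is also a target of p53, had 560 and 107 reads and a log2 ratio of −1.71. The matricellular genes Ccn1 and Ccn2, which also respond to mechanical signals, had log2 ratios of −1.57 (−1.78 to −1.36) and −0.93 (−1.08 to −0.79), from 1058 to 224 and from 1536 to 505 reads. Tgfbi, named for its induction by TGF-β, had 865 and 318 reads and a log2 ratio of −0.77 (−0.96 to −0.58). Col1a1, a chain of type I collagen, was at −0.62 (−0.86 to −0.38). The other listed collagen genes were above 0 with TMM and not past the thresholds. Col1a2, the other type I chain, was at 0.15 (0.01 to 0.29), Col3a1 at 0.30 (0.11 to 0.50) and Col5a1 at 0.26 (−0.09 to 0.60). Fn1, which encodes fibronectin, was higher past the thresholds, with 244 and 251 reads and a log2 ratio of 0.71 (0.45 to 0.97). The ratio became 0.52 with library size only and was then not past the thresholds.

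In heart 30 target genes were tested, 2 were higher and 7 lower, or 30.0% beside 15.9% of all genes, with a median of −0.16. The 2 that were higher were Twist1 at 1.22, with 14 and 33 reads, and Nox4 at 0.83. Timp1, an inhibitor of matrix metalloproteinases, had 199 and 46 reads and a log2 ratio of −2.09. Cdkn1a had 2516 and 628 reads and a log2 ratio of −1.99, Sphk1 was at −1.11 and Col1a1 at −0.92. The other listed collagen genes, Col1a2 at −0.35, Col3a1 at −0.52 and Col5a1 at −0.52, were below 0 and not past the thresholds. Tgfbi was lower here too, at −0.67 (−0.90 to −0.45). Ccn2 with 853 and 921 reads and Fn1 with 481 and 462 were not past the thresholds, with log2 ratios of 0.12 and −0.05. Ccn1 was at 0.52 (0.29 to 0.76) in heart, under 1.5-fold and on the other side of 0 from kidney.

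**Figure D4:**
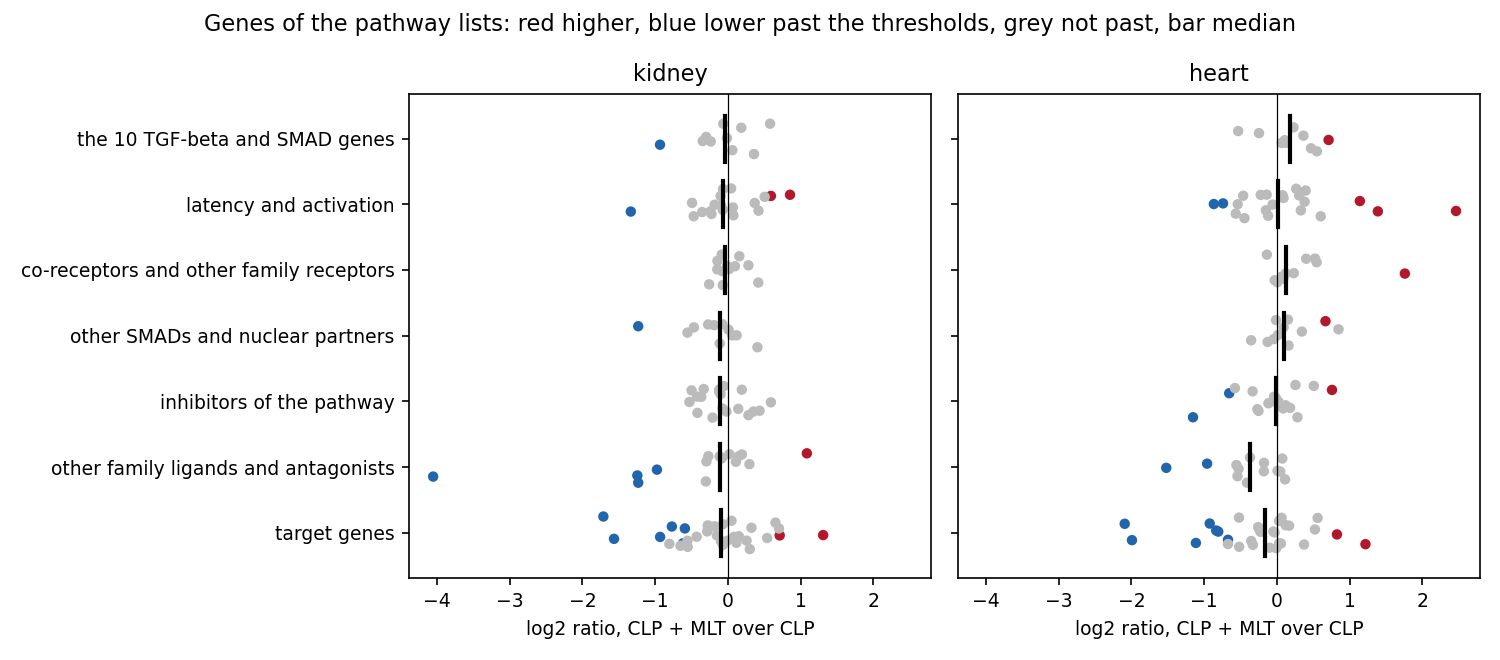
Log2 ratio of CLP + MLT over CLP (horizontal axis) for the tested genes of the 10 members and of the 6 pathway lists in kidney and heart, with red for genes higher and blue for genes lower past the thresholds, grey for the rest and a bar at each list's median; vertical scatter within a list has no meaning. The target genes hold 8 coloured points in kidney and 9 in heart, more of them lower than higher.

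Of the genes past the thresholds, Cdkn1a, Col1a1, Tgfbi and Tgm2 were past them in both organs, all lower. These 4 are 23.5% of the 17 listed genes called in kidney and 19.0% of the 21 called in heart. Over all genes, 492 were past the thresholds in both organs, 18.9% of those called in kidney and 19.5% of those called in heart. The share of listed genes past them in both organs was thus close to the background. Of the 492, 286 went the same way in both organs, and 110 were lower in both. The shared direction of the 4 listed genes was not tested against this. Tgm2 encodes transglutaminase 2, which crosslinks matrix proteins and the latent TGF-β complex. Its log2 ratio was −1.34 in kidney and −0.74 in heart.

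Latency and activation genes went both ways with TMM. In kidney 19 were tested and 15.8% were past the thresholds, beside 15.4% of all genes. Besides Tgm2, these were Nrros at 0.85 and Ltbp3 at 0.59, both higher. With library size only they were at 0.66 and 0.395 and no longer past the thresholds, and the list had 0 genes higher and 3 lower. NRROS presents latent TGF-β on myeloid cells, and LTBP3 is a latent binding protein like LTBP1. In heart 22 were tested, 3 were higher and 2 lower, or 22.7% beside 15.9% of all genes. Plau, the urokinase gene, had 31 and 172 reads in heart and 9025 and 8035 in kidney, and its heart log2 ratio was 2.46. In the same heart libraries 5 of the 8 kidney tubule markers were also higher, with a median of 1.23. The part of kidney transcripts in the Plau value was not tested. Thbs1, whose product thrombospondin 1 can activate latent TGF-β, was at 1.14, and Mmp14, a membrane metalloproteinase gene, was at −0.87.

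Of the co-receptors and other family receptors, 0 of 12 tested were past the thresholds in kidney, where 15.4% of all genes were, with a median of −0.04 and a range from −0.26 to 0.42. In heart 1 of 11 passed, Amhr2 with 5 and 18 reads, or 9.09% beside 15.9% of all genes. Tgfbr2 was thus the only gene of the receptors listed here that passed in kidney. Of the other SMADs and nuclear partners, 11 were tested in each organ and 1 passed, or 9.09%. The share of all genes was 15.4% in kidney and 15.9% in heart. Myc was lower in kidney (−1.23) and Sp1 higher in heart (0.67). No SMAD gene outside the 10 passed in either organ with TMM. With library size only, Smad5 passed in kidney at −0.75, lower.

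Inhibitors of the pathway were listed together with other regulators, such as deubiquitinase genes. Of this list, 0 of 20 tested were past the thresholds in kidney, where 15.4% of all genes were, with a median of −0.11. With library size only, 4 of the 20 were lower, and so were 2373 of all 16932 genes. Smad6, the inhibitory SMAD of the BMP branch, was at 0.35, Skil at 0.19, Pmepa1 at 0.14 and Bambi, a decoy receptor, at 0.59, with 76 and 72 reads. In heart 19 were tested, 1 was higher and 2 lower, or 15.8% beside 15.9% of all genes. Fstl3, which binds activins, was lower (−1.15), and Usp11, which encodes a deubiquitinase, was higher (0.76). Pmepa1, itself induced by TGF-β, was lower (−0.66, from −0.87 to −0.44). There Smad6 was at −0.04, Skil at 0.28 and Bambi at 0.09. Of the other ligands and antagonists, 15 were tested in kidney, 1 was higher and 4 lower, or 33.3% beside 15.4% of all genes. Gdf15, a stress-induced ligand, had 405 and 107 reads and a log2 ratio of −1.25, Bmp6 was at −1.23, and Inha at 1.08 with 47 and 63 reads. In heart 13 were tested and 2 were lower, Inhbb at −1.52 and Nbl1 at −0.96, or 15.4% beside 15.9% of all genes.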

How the data were processed

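Kidney and heart RNA of 4 libraries was analysed, 1 per group. The authors trimmed reads with trim-galore, aligned them to mm10 with HISAT2 2.1.0 and deposited raw counts per gene. HTSeq is named in the submitters' processing notes. The sources used here give neither the annotation nor the strand setting. In each file 5 totals that name no gene, 65.5% to 72.8% of the file's sum, were left out. Names and positions came from GENCODE M21 for GRCm38, which is mm10, and 55141 of 55401 identifiers matched.

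TMM factors were computed per tissue with edgeR 4.0.16 in R 4.3.3, and values in Python 3.11.15 with scipy 1.17.1. All genes whose mean count reached 10 were tested. Log2 ratios used a prior count of 0.5. The thresholds are those the study states for edgeR. A dispersion cannot be estimated from single libraries, so the p-value came from an exact two-sided binomial test. Intervals are Clopper-Pearson for ratios and shares, Poisson for levels, and Wald for pairs of genes and for heart minus kidney. These intervals cover the counting error of independent reads only, and PCR copies are not independent molecules, so they may be too narrow. Levels per kilobase used merged exon length.

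The members and lists were chosen with earlier results of these data known. Named were all members, up to 4 genes per list and organ with the largest change among those past the thresholds whose mean count reached 50, 9 genes fixed by name, such as Fn1 and Bambi, of which 1 is not reported here, and the 3 genes nearest to Tgfb1. Amhr2, Smad5, Lyz2, Csf1r, Gp1bb, Col3a1, Col5a1, Twist1, Nox4, Gm29491, Gm37804 and Gm48008 were named after their values were seen. Col1a2, Acta2 and Tagln were named because they stand in both a cell type list and the target list. Alternatives were scaling by library size, DESeq2 1.42.0 size factors, upper quartile or TMM without mitochondrial and haemoglobin genes, no filter or a minimum mean of 50, a prior count of 5, coefficients of variation of 0.1, 0.2 and 0.4 assumed in edgeR's exact test, a fold change of at least 2, and the fold change alone. Simulated counts with counting error only gave back 182 of 199 changed genes over 16936 genes in kidney, and 185 of 200 over 15881 in heart, with 48 and 50 unchanged genes called.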

Additional observations from a re-analysis of the deposited data

Results flagged for a closer look

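Smad7 was the only member whose counting intervals lay on opposite sides of 0 in the organs, lower in the CLP + MLT kidney library and higher in the CLP + MLT heart library. Heart minus kidney, the difference of its log2 ratios was 0.85. The difference was not tested against the spread between mice, since each group had 1 library. Neither Smad7 value was past the thresholds with TMM. How many of all genes had intervals on opposite sides of 0 was not counted. Of the 492 genes past the thresholds in both organs, 286 went the same way and the rest went opposite ways. Scaling by library size only moved the median log2 ratio of all genes to −0.19 in kidney and 0.06 in heart, and kept both directions of Smad7.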

How the results depend on the processing

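No paired analysis was possible because each group had 1 library and the number in the label MLT4, which both CLP + MLT libraries share, is not explained. With 1 library per group none could be left out. The main counts past the thresholds were 1 member, 17 listed genes and 2604 genes in all in kidney, and 1 member, 21 listed genes and 2528 genes in all in heart. With an assumed coefficient of variation of 0.1, 0 members remained past the thresholds in heart, and the other totals stayed within 1.5 times. At 0.2 the counts were 0 members, 7 listed genes and 619 genes in kidney and 0, 4 and 662 in heart. At 0.4 they were 0, 1 and 90 in kidney and 0, 1 and 63 in heart. A fold change of at least 2 gave 0, 9 and 1185 in kidney and 0, 10 and 1259 in heart. Scaling by library size only or by the upper quartile gave 2 members in heart, Tgfb2 and Smad7. Scaling by library size only split the calls over all genes into 727 higher and 2373 lower in kidney, beside 1320 and 1284 with TMM, and into 1318 and 1215 in heart, beside 1134 and 1394. The other alternatives left each total within 1.5 times, but not each direction. Over all genes, a mean of at least 50 counts gave 689 higher in heart, and the fold change alone gave 1726 higher in heart and 1971 lower in kidney. Of the members' own log2 ratios, none that was past the thresholds changed direction. Heart minus kidney, library size only gave 0.54 for Tgfbr1, 0.65 for Tgfbr2 and 0.17 for Smad3, outside their counting intervals. Tgfb2 and Tgfb3 have 18 to 29 reads in the kidney libraries and drop out in kidney when a mean of at least 50 counts is required.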
